A study of Mus musculus with 6 samples.

Results

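The chemokine receptor genes Cxcr6, Ccr2, Ccr4, Ccr6, Ccr7, Ccr8, Cxcr4, Cxcr5 and Ccr9 were examined in CD4+CD25+ T cells of mice with and without the histone deacetylase HDAC9. The members were all probe sets whose platform gene symbol was 1 of these 9 names. They came to 14 of the 22626 probe sets tested, and to 9 of the 12393 genes with a probe set of 1 symbol. Cxcr6 was chosen by its difference between the genotypes on these same arrays, so that difference is a description and is not tested here. The other receptors were added as a family, with the results of this comparison already known, and their differences are given in the same way. RNA came from 3 samples of HDAC9-/- mice and 3 samples of wild type mice, all of strain C57BL/6, each on 1 array. The cells were regulatory T cells (Treg) separated with magnets as CD4+CD25+ cells, without any treatment named in the labels. The age and sex of the mice, the deleted exons, and whether any sample pooled several mice are not stated in the labels. Nothing says that each sample came from a separate mouse, so p-values measure only how these samples spread, which may be technical.

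Chemokine receptors are G protein-coupled receptors on leukocytes that steer migration along gradients of chemokines, small secreted proteins. Treg use Ccr7 and Cxcr4 to enter and stay in lymphoid organs, Cxcr5 to enter B cell follicles, and Ccr4, Ccr6, Ccr8, Ccr2 and Cxcr6 to reach inflamed or barrier tissues. Ccr9 directs lymphocytes to the small intestine. The receptors signal through the inhibitory G protein family, and the RGS proteins shorten that signal.

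Most transcripts listed for Treg were bright, but some listed for other cells were brighter. Across the 6 arrays Foxp3, the transcription factor of Treg, read 10.29 to 10.44 on the log2 scale, Cd4 9.75 to 9.97, and Il2ra, which encodes CD25, 9.34 to 9.54. These are the brightest probe sets of each gene, and the median over all probe sets was 5.76. Of 8 Treg genes 7 had a mean at or above that median, while Ikzf2 stood at the 41.1th percentile. Foxp3 stood at the 94.8th percentile. The plasma cell marker Jchain (98.4th) and the myeloid markers S100a8 (97.9th), S100a9 (97.3th) and Cst3 (95.9th) stood higher. So did Ccl5 (97.8th) and Gzma (95.4th), listed for CD8 T and natural killer cells. The other plasma cell markers were much dimmer than Jchain, with Prdm1 at the 68.2th, Sdc1 at the 45.1th and Tnfrsf17 at the 42.3th percentile. Most markers listed for other cells were dimmer than Foxp3. Both Il2ra probe sets were lower in HDAC9-/- samples without overlap of the groups, by differences of -0.08 and -0.19. The same held for a dim Cd4 probe set (-0.38), while the bright one overlapped, and these 3 were the only such ones among the 12 probe sets of 8 Treg genes. Across the array 6.04% of probe sets were lower without overlap. The 1 probe set of Hdac9 was dim, at 3.50, 3.74 and 4.10 in the wild type and 3.74, 3.62 and 3.66 in the HDAC9-/- samples. The exons it reads against the deletion are not known here, so it checks nothing about the labels. Wild type replicate 3 stood apart, with a mean correlation of 0.991 with the other arrays against 0.994 to 0.996 for the rest. For Cxcr6, Ccr9 and the counts of members, results are given with and without it. Differences of genes outside the 9 members are given with all arrays alone.

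With all 6 arrays, Cxcr6 was the receptor with the lowest HDAC9-/- values relative to wild type, in both of its probe sets. Without wild type replicate 3 they were at -0.68 and -0.70, and Ccr9 probe set 1421919_a_at was lower, at -0.84. Cxcr6 binds Cxcl16 and marks activated and tissue-resident T cells. In probe set 1422812_at the log2 signal was 9.72, 9.43 and 9.89 in replicates 1 to 3 of the wild type, and 8.60, 9.12 and 8.97 in those of HDAC9-/- mice. Every HDAC9-/- sample lay below every wild type sample, and the gap between the nearest of them was 0.31. The difference was -0.78 (standard error 0.17, limma), a 1.72-fold lower signal. Probe set 1425832_a_at, whose suffix marks probes shared by transcripts of 1 gene, read 9.77, 9.29 and 9.85 in wild type and 8.66, 9.10 and 8.74 in HDAC9-/- samples. Its groups did not overlap either, although wild type replicate 2 and HDAC9-/- replicate 2 were only 0.18 apart. The difference there was -0.80 (standard error 0.18), or 1.75-fold. In RNA of a whole fraction, fewer cells that express Cxcr6 and less Cxcr6 RNA per cell cannot be told apart.

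Both probe sets ranked the arrays nearly alike. Their correlation over the 6 arrays was 0.972, which describes 2 readings of the same RNA and not independent evidence. Wild type replicate 3 had the most Cxcr6 signal and HDAC9-/- replicate 1 the least, in both. The mean difference of the pair was -0.79, and it was -0.69 without wild type replicate 3. Set against the mean of the other 8 receptors on the same array, Cxcr6 was above them by 1.76, 1.20 and 2.003 log2 units in wild type and by 0.66, 1.19 and 0.73 in HDAC9-/- replicates 1 to 3. On that scale the nearest samples of the groups, the second replicates, almost met, and the mean difference was -0.79.

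**Figure D1:**
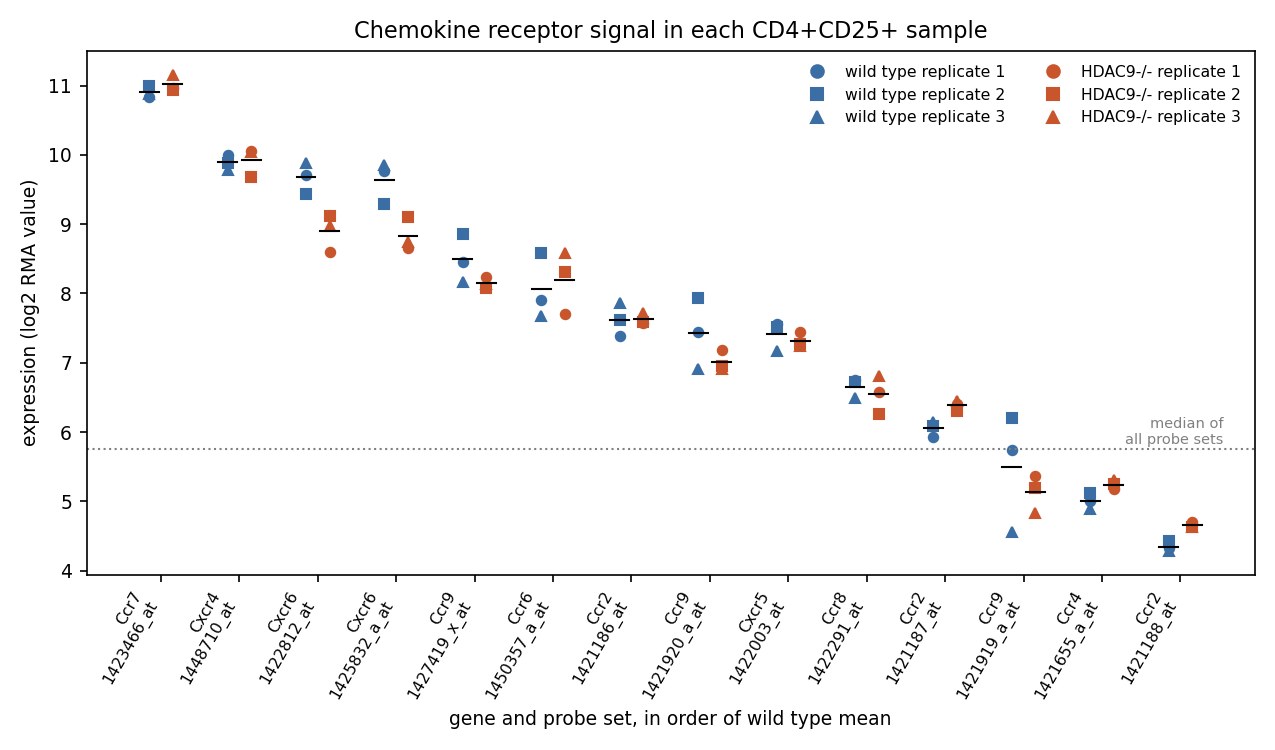
Log2 RMA value (vertical axis) of each of the 14 chemokine receptor probe sets (horizontal axis, in order of wild type mean) in 3 wild type (blue) and 3 HDAC9-/- (orange) samples, with black bars for group means and a dotted line at the median of all probe sets, 5.76. The Cxcr6 points of the groups are apart in both probe sets, while those of Ccr6, Ccr7, Ccr8, Cxcr4 and Cxcr5 overlap.

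Of the other receptors of inflamed tissue, Ccr2 and Ccr4 had slightly higher values in HDAC9-/- samples, and Ccr2 did so in its dimmer probe sets alone. Ccr2 is the receptor of Ccl2 and is best known from monocytes. Its probe set 1421187_at read 5.93, 6.09 and 6.14 in wild type and 6.41, 6.31 and 6.45 in HDAC9-/- replicates 1 to 3. Probe set 1421188_at, below the median of the array, read 4.33, 4.43 and 4.29 against 4.71, 4.63 and 4.63. In both the groups did not overlap, with differences of 0.33 (standard error 0.08) and 0.31 (standard error 0.07). The brightest Ccr2 probe set, 1421186_at, read 7.38, 7.61 and 7.87 in wild type and 7.58, 7.59 and 7.72 in HDAC9-/- samples. There the groups overlapped, the difference was 0.01, and its 95% confidence interval ran from -0.29 to 0.31. Its sign turned when arrays were quantile normalized again or their medians aligned, and without wild type replicate 1 or HDAC9-/- replicate 3. The 3 probe sets of Ccr2 thus did not give 1 answer, and the correlation of the brightest with the dimmest was -0.07 over the 6 arrays.

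Because monocytes express Ccr2, the markers of myeloid cells are given beside it. The mean log2 level of 12 myeloid marker genes was 7.36 to 7.77 in wild type samples, while HDAC9-/- samples had 7.76 to 8.22. These ranges overlapped only through wild type replicate 3 (7.77) and HDAC9-/- replicate 3 (7.76). All 12 genes had positive differences, 5 of them without overlap of the groups (11.0% of all probe sets were higher in that way), and 10 of the 12 lay at or above the median of the array. The neutrophil and monocyte genes S100a9 and S100a8 differed by 1.01 and 0.96 without overlap. Csf1r, the receptor of macrophage colony-stimulating factor, differed by 0.50 (standard error 0.36) with overlap, and HDAC9-/- replicate 3 was its lowest sample. The part of these cells in the Ccr2 values was not tested.

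Ccr4, the receptor of Ccl17 and Ccl22, had 1 probe set, which was dim. It read 5.002, 5.13 and 4.90 in wild type and 5.18, 5.25 and 5.30 in HDAC9-/- replicates 1 to 3. The groups did not overlap but came within 0.05 of each other, and the difference was 0.24 (standard error 0.08). Ccr8, a receptor of Ccl1 found on Treg of skin and tumours, read 6.75, 6.72 and 6.49 in wild type and 6.58, 6.27 and 6.81 in HDAC9-/- samples. The HDAC9-/- values spanned those of the wild type, and the difference was -0.10 with an interval of -0.45 to 0.25. Its sign turned without HDAC9-/- replicate 2, to 0.04.

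Ccr6, the receptor of Ccl20, varied more between samples of 1 genotype than between genotypes. It read 7.90, 8.59 and 7.68 in wild type and 7.70, 8.32 and 8.58 in HDAC9-/- replicates 1 to 3. The difference was 0.14, with an interval of -0.56 to 0.84. In each group the sample with the most Ccr6 signal (wild type replicate 2 and HDAC9-/- replicate 3) was the one with the lowest mean level of 7 B cell markers. That level was 6.46 to 6.65 in wild type samples, and HDAC9-/- samples had 6.27 to 6.85. B cells also express Ccr6, and their part in its spread was not tested. Without wild type replicate 3 or HDAC9-/- replicate 3 the sign of the Ccr6 difference turned.

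The receptors of lymphoid organs were close between genotypes. Ccr7, which guides naive and central T cells by Ccl19 and Ccl21, was the brightest receptor, at 10.83, 11.00 and 10.88 in wild type and 10.97, 10.93 and 11.16 in HDAC9-/- samples. Its groups overlapped, with a difference of 0.12 and an interval of -0.09 to 0.33. Cxcr4, the receptor of Cxcl12, read 10.00, 9.89 and 9.78 in wild type and 10.06, 9.68 and 10.03 in HDAC9-/- samples. That difference was 0.03, its interval ran from -0.25 to 0.32, and its sign turned with array weights or without wild type replicate 3, HDAC9-/- replicate 1 or HDAC9-/- replicate 3. Cxcr5, the receptor of Cxcl13 that brings T cells into follicles, read 7.55, 7.51 and 7.17 in wild type and 7.45, 7.27 and 7.24 in HDAC9-/- samples. Wild type replicate 3 was its lowest sample, and the difference was -0.09 with an interval of -0.38 to 0.19. The intervals of these 3 genes reached 0.38 at most in size, but they are unadjusted and set no bound on a change.

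Ccr9, the receptor of Ccl25, had lower HDAC9-/- means in its 3 probe sets, and whether the groups overlapped depended on single arrays and on scaling. The brightest, 1427419_x_at, read 8.46, 8.86 and 8.16 in wild type and 8.24, 8.08 and 8.14 in HDAC9-/- replicates 1 to 3. Its suffix marks probes that may also bind other transcripts. The others read 7.45, 7.94 and 6.92 against 7.18, 6.96 and 6.91 (1421920_a_at), and 5.74, 6.21 and 4.56 against 5.37, 5.20 and 4.84 (1421919_a_at). Wild type replicate 2 was the highest and wild type replicate 3 the lowest wild type sample in all 3. The differences were -0.34, -0.42 and -0.37 with standard errors of 0.17, 0.24 and 0.40. Without wild type replicate 3 they were -0.50, -0.67 and -0.84, and the groups then did not overlap in any of the 3. Without wild type replicate 2 they shrank to -0.16, -0.16 and -0.02. The groups of 1427419_x_at were also apart without HDAC9-/- replicate 1, and with all arrays when their medians were aligned. The probe sets correlated with each other at 0.876 to 0.986 over the 6 arrays. Against the mean Cxcr6 signal they correlated at 0.01 to 0.26, wild type replicate 3 being high for Cxcr6 and low for Ccr9.

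**Figure D2:**
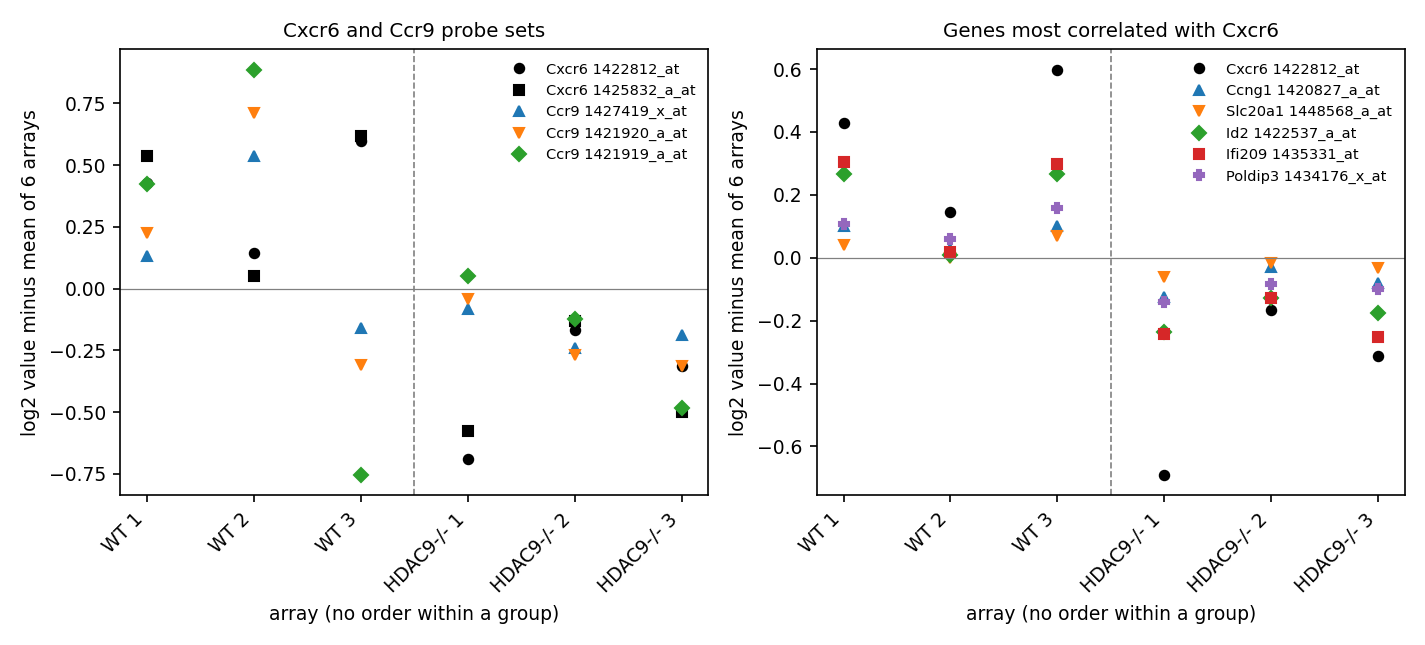
Log2 value minus the mean of the 6 arrays (vertical axis) on each array (horizontal axis), for the Cxcr6 and Ccr9 probe sets (left) and for Cxcr6 with the 5 genes most correlated with it (right). In wild type replicate 3 the Cxcr6 points are above and the Ccr9 points below their means, and the 5 genes on the right span narrower ranges than Cxcr6.

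Over all 14 probe sets, 2 were lower and 3 higher in HDAC9-/- samples without overlap of the groups. Across the array the same held for 6.04% (lower) and 11.0% (higher) of the 22626 probe sets. The 2 that were lower were those of Cxcr6, and the 3 that were higher were those of Ccr2 and Ccr4 described above. Without wild type replicate 3 the number that were lower was 6, with Cxcr5 and the 3 probe sets of Ccr9 added, against 13.2% of the whole array. None of the 14 passed an adjusted p of 0.05 in limma, where 0.0133% of all probe sets did. At an unadjusted p below 0.05 there were 5 of 14, beside 8.78% of the array. Nothing is read from these counts, since Cxcr6 was chosen for this contrast. The median difference was -0.04 over the 14 probe sets and 0.01 over all probe sets tested.

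**Figure D3:**
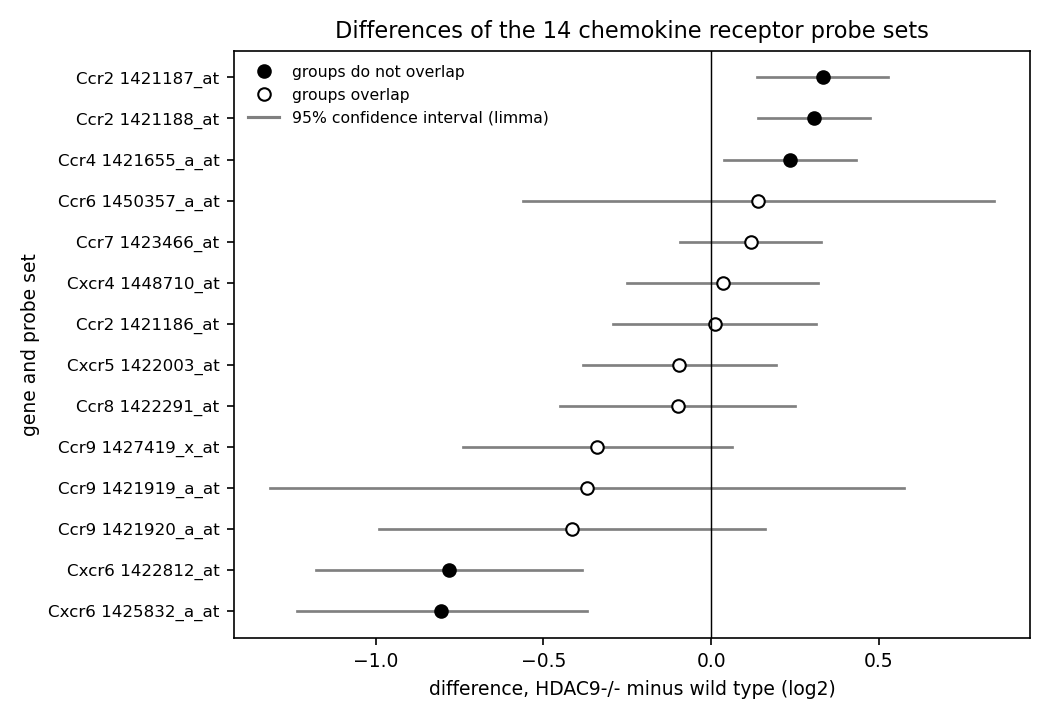
Difference between HDAC9-/- and wild type means (horizontal axis, log2) of each chemokine receptor probe set (vertical axis), with 95% confidence intervals from limma that are not adjusted for the number of probe sets. Filled points mark probe sets whose groups do not overlap, which are Cxcr6 at -0.78 and -0.80, Ccr2 at 0.31 and 0.33, and Ccr4 at 0.24.

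By array signal of the brightest probe set, the order in wild type was Ccr7, Cxcr4, Cxcr6, Ccr9, Ccr6, Ccr2, Cxcr5, Ccr8 and Ccr4. Probes differ in how well they bind, so this is an order of signal (log2) and not of transcript number. The order was the same in HDAC9-/- samples except that Ccr6 (8.20) stood above Ccr9 (8.15), and these overlapped in both genotypes. Ccr7 lay above Cxcr4 in all samples without overlap. Cxcr4 and Cxcr6 overlapped in wild type, at means of 9.89 ± 0.11 and 9.68 ± 0.23 (SD, n = 3). In HDAC9-/- samples they were apart, at 9.93 ± 0.21 and 8.90 ± 0.27 (SD, n = 3). Cxcr6 was above Ccr9 without overlap in either genotype. Ccr6 and Ccr2 overlapped in both, and Ccr2 and Cxcr5 overlapped in wild type alone. Cxcr5, Ccr8 and Ccr4 followed without overlap, and Ccr4 was the 1 gene whose mean, at the 43.0th percentile, fell below the median of the array.

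The 5 genes whose values followed the mean of the Cxcr6 probe sets most closely over the 6 arrays were Ccng1, Slc20a1, Id2, Ifi209 and Poldip3. Their Pearson correlations were 0.995, 0.985, 0.980, 0.975 and 0.974, among 10371 probe sets of 1 symbol at or above the median. In all, 14 of those reached 0.95, and with 6 arrays in 2 groups such values are a description only. Id2, an inhibitor of basic helix-loop-helix factors that effector T cells carry, read 10.59, 10.34 and 10.59 in wild type and 10.09, 10.20 and 10.15 in HDAC9-/- samples. Its difference was -0.36, and that of Ifi209, an interferon-induced gene, was -0.41. The differences of Ccng1 (-0.15), Poldip3 (-0.22) and Slc20a1 (-0.07) were smaller. For each of the 5 the genotypes did not overlap, as they did not for Cxcr6, whose pattern chose them.

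Cxcr6 lies on chromosome 9 in a row of chemokine receptor genes, and 6 of the 9 members are on that chromosome (Cxcr6, Ccr2, Ccr4, Ccr8, Ccr9 and Cxcr5). Ordered by start in the RefSeq table of GRCm38.p6, the nearest protein-coding genes are Lztfl1, Ccr9 and Fyco1 before it and Xcr1, Ccr1 and Ccr1l1 after it. The annotated span of Fyco1 encloses that of Cxcr6. Fyco1, an adaptor of autophagosome transport, read 7.84, 7.98 and 7.67 in wild type and 7.92, 7.67 and 7.96 in HDAC9-/- samples. Its difference was 0.02, with an interval of -0.25 to 0.29 (limma, adjusted p = 0.963). Xcr1, a receptor of cross-presenting dendritic cells, was dim and differed by -0.06 (adjusted p = 0.874). The brightest Lztfl1 probe set differed by 0.03 and Ccr1l1 by -0.08. Ccr1 differed by 0.24 and, in a very dim probe set that read 3.02 to 3.45, by 0.35. With all arrays no estimate for a neighbour was as large as that of Cxcr6. The intervals of Ccr9 did reach it in 2 probe sets, with lower ends of -0.99 (1421920_a_at) and -1.31 (1421919_a_at), and without wild type replicate 3 the latter was at -0.84.

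The promoters of Cxcr6 and of its neighbour Ccr9 are printed because these nearby genes had their lowest wild type values in different samples. Each is 300 bases from RefSeq, GRCm38.p6, running from 250 bases before to 50 after the annotated start on the plus strand, at chr9:123806227-123806526 for Cxcr6 and chr9:123766961-123767260 for Ccr9. Capitals mark matches, on either strand, to any of the 6 motifs searched.
Cxcr6: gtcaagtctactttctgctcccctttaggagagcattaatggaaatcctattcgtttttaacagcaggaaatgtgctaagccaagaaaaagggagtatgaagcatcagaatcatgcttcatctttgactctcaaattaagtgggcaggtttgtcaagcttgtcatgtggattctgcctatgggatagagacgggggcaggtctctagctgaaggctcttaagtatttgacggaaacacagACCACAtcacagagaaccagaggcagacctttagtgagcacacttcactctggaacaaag
Ccr9: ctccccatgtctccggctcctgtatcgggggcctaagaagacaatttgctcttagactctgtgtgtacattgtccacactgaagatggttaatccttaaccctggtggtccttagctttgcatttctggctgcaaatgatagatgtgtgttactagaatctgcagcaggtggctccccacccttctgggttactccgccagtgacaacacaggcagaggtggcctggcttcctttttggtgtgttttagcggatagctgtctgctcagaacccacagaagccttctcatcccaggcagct
The motifs were TGTGGT for RUNX factors, TCACAC as the core of the T-box, TGTTTAC for forkhead factors, TTCNNNGAA for STAT factors, AGATAA for the GATA family, and CTATTTATA for MEF2, the factors that class IIa deacetylases bind. The Cxcr6 window held 1 match, the RUNX letters on the minus strand at positions -10 to -5 from the start, and the Ccr9 window held none. Among 32851 windows of the same length, 16.8% held the RUNX letters, 14.5% the T-box core, 11.2% GATA, 3.65% forkhead, 8.30% STAT and 0.429% MEF2. No match overlapped another in the printed windows, and a match is not shown to be a site in these cells. Of the 9 members, 7 had an entry in the table, and Ccr7 and Cxcr5 did not.

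Ligand genes of the 9 receptors were mostly dim, and Ccl17, Ccl22 and Cxcl16 had the smallest p-values. Of 15 listed ligands 12 were measured, with 15 probe sets. None of these 15 passed an adjusted p of 0.05, 3 had an unadjusted p below 0.05, all higher in HDAC9-/- samples, and the median difference of the 15 was 0.04. Across the array 8.78% had such a p, and there too more were higher (1256) than lower (731). Ccl17, a ligand of Ccr4 made by dendritic cells, read 4.46, 4.72 and 5.02 in wild type and 5.53, 5.27 and 5.12 in HDAC9-/- replicates 1 to 3. The groups did not overlap, and the difference was 0.58 (standard error 0.16, limma, adjusted p = 0.450). Ccl22, the other Ccr4 ligand, read 6.44, 6.68 and 7.63 in wild type and 8.001, 7.36 and 7.97 in HDAC9-/- samples. Its groups overlapped through wild type replicate 3, and the difference was 0.86 (standard error 0.33, adjusted p = 0.549).

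Cxcl16, the ligand of Cxcr6, is made as a membrane protein by macrophages and dendritic cells. Its brighter probe set 1418718_at read 6.61, 6.83 and 7.05 in wild type and 7.11, 6.97 and 7.22 in HDAC9-/- samples. They differed by 0.27 (standard error 0.13, limma, adjusted p = 0.598). Probe set 1449195_s_at, whose suffix marks probes shared by several transcripts, read 4.72, 4.87 and 5.53 against 6.06, 5.45 and 6.06. The difference there was 0.82 (standard error 0.25, adjusted p = 0.495). In both probe sets the groups overlapped through wild type replicate 3 and HDAC9-/- replicate 2. Wild type replicate 1 had the least signal of Ccl17, Ccl22 and Cxcl16, and it also had the lowest myeloid level (7.36). The part of myeloid cells in these ligand values was not tested.

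**Figure D4:**
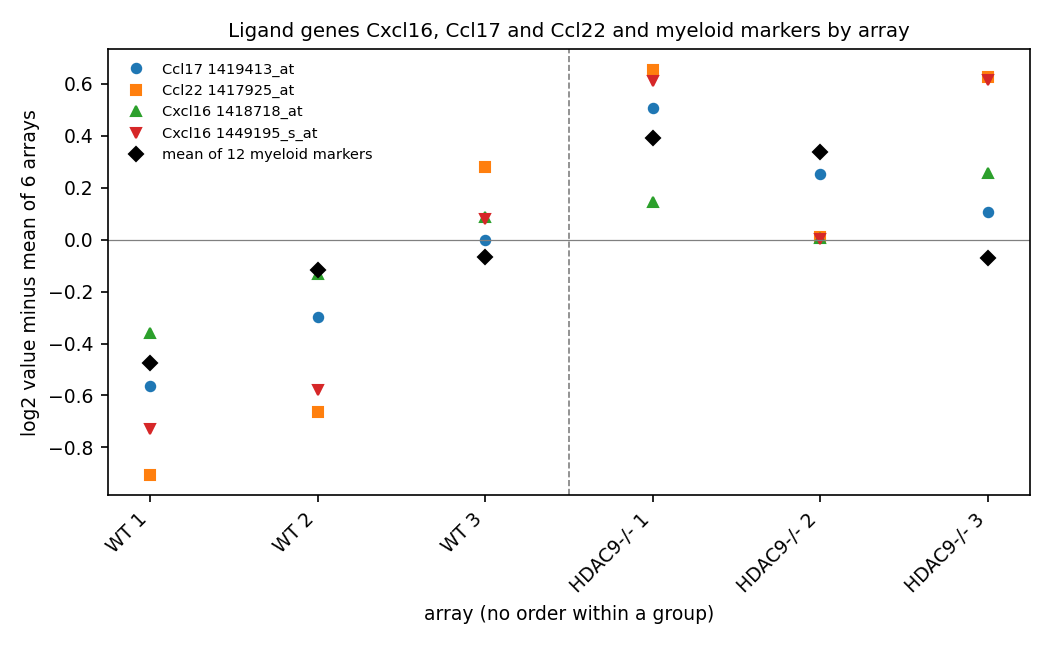
Log2 value minus the mean of the 6 arrays (vertical axis) on each array (horizontal axis) for the probe sets of Cxcl16, Ccl17 and Ccl22, and for the mean of 12 myeloid marker genes (black diamonds). Wild type replicate 1 is lowest for all of them, and HDAC9-/- replicate 3 has high Ccl22 and Cxcl16 values with a myeloid level of 7.76, near that of wild type replicate 3 (7.77).

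Of 15 other chemokine receptors 13 were measured, with 16 probe sets and a median difference of 0.08. None of the 16 passed, and 2 had an unadjusted p below 0.05, 1 in each direction, beside 8.78% of the array. Cxcr3, a receptor of T helper 1 cells, was the bright one among them, at 10.46, 10.03 and 10.23 in wild type and 9.96, 9.99 and 9.83 in HDAC9-/- samples. Its groups did not overlap, by a margin of 0.04, and the difference was -0.31 (standard error 0.12, limma, adjusted p = 0.549). Ccrl2, an atypical receptor that binds chemerin, differed by 0.17 (adjusted p = 0.598). The brighter Ccr1 probe set had an adjusted p of 0.635. Only 2 of the 13 genes, Cxcr3 and Ccrl2, had a mean at or above the median of the array.

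The machinery below the receptors had a median difference of -0.01. It was bright, and 25 of its 27 measured genes (of 30 listed) lay at or above the median. None of its 56 probe sets passed, and 3 had an unadjusted p below 0.05, 1 lower and 2 higher, beside 8.78% of the array. Pik3cg, the catalytic subunit of the phosphoinositide 3-kinase that G proteins activate, read 7.14, 7.30 and 6.58 in wild type and 8.05, 8.19 and 8.32 in HDAC9-/- samples in probe set 1422707_at. The difference was 1.18 (standard error 0.19, adjusted p = 0.307), but the other Pik3cg probe set differed by 0.08. Among the regulators of G protein signalling, Rgs3 differed by -0.16 (adjusted p = 0.580) and the dim Rgs18 by 0.46 (adjusted p = 0.580). Of 9 other migration receptors 7 were measured, with a median difference of -0.19. None passed, 6 of the 7 had negative differences, and 1 had an unadjusted p below 0.05. Across the array 10819 of 22626 probe sets had negative differences, and 8.78% had such a p. Gpr132 and S1pr1, the sphingosine 1-phosphate receptor that lets T cells leave lymphoid organs, were lower without overlap, as were 6.04% of all probe sets. The 1 with the small p was Gpr132, a receptor of lipid and metabolic signals, with a difference of -0.23 (adjusted p = 0.546). Gpr83, a receptor that Treg carry, differed by -0.28 (adjusted p = 0.625), and Ltb4r1, the leukotriene B4 receptor, by 0.38 (adjusted p = 0.598). Gpr83 read 9.96, 10.01 and 9.44 in wild type and 9.49, 9.53 and 9.55 in HDAC9-/- samples. Its groups overlapped through wild type replicate 3 alone.

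Other lymphocytes, among them cells that carry Cxcr6, were looked at through their markers. The mean level of 11 markers of CD8 T and natural killer cells was 8.27 to 8.53 in wild type samples, and HDAC9-/- samples had 8.38 to 8.67. Of these 11 genes 8 had positive and 3 negative differences, and all lay at or above the median. Ccl5 (0.30) and Eomes (0.24) were higher without overlap, beside 11.0% of all probe sets, and none was lower in that way. Xcl1 had the largest negative difference, -0.38 (standard error 0.15), with overlap of the groups. For natural killer T and gamma delta T cells 4 markers were measured, with mean levels of 5.17 to 5.21 (wild type) and 5.07 to 5.21 (HDAC9-/-), and with 3 of the 4 below the median. They had 2 negative and 2 positive differences, of which Blk was at 0.20, Klra1 at 0.05 and Sox13 at -0.07. Blk was the 1 gene above the median, and it was also 1 of the 7 B cell markers. The fourth, Zbtb16, the factor that natural killer T cells depend on, read 6.04, 5.87 and 5.88 in wild type and 5.52, 5.52 and 5.71 in HDAC9-/- samples. Its groups did not overlap in this probe set, 1419874_x_at, and the difference was -0.34 (standard error 0.09, limma, adjusted p = 0.433). The suffix marks probes that may also bind other transcripts. In the dimmer Zbtb16 probe set, 1427638_at, the groups overlapped, with a difference of -0.28 (standard error 0.11). Of 4 plasma cell markers 3 had negative differences and 1 a positive one, and their mean level was 7.38 to 7.56 in wild type samples, where HDAC9-/- samples had 7.22 to 7.41. Jchain, the joining chain of secreted antibodies, was the 1 of them without overlap, with a difference of -0.47 (limma, adjusted p = 0.337). Beside Jchain and Zbtb16, 6.04% of all probe sets were lower without overlap. The part of all these cells in the Cxcr6 values was not tested. RNA integrity was gauged from the Gapdh controls, as 3-prime minus 5-prime signal. That value also separated the groups, with 0.03 to 0.11 for wild type and 0.15 to 0.28 for HDAC9-/- arrays. The same value for actin overlapped, at 0.33 to 0.46 for wild type and 0.42 to 0.60 for HDAC9-/- arrays. Their part was not tested either.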

How the data were processed

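Total RNA of 6 CD4+CD25+ samples, 3 per genotype, was labelled with biotin and read on 1 array each, per the labels. The deposited log2 values come from RMA, which the authors ran, per the submitters' processing notes. No version or setting of it is given. RMA draws dim probe sets together, which understates fold changes of dim genes. Control probe sets (64) were left out of 22690. Symbols came from the platform annotation, updated by Entrez identifier with RefSeq GRCm38.p6. Probe sets of 1 symbol were used for names. The number of arrays limits the precision.

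Differences are HDAC9-/- minus wild type, fitted by genotype alone with lmFit and eBayes of limma 3.58.1 (R 4.3.3) on all 22626 probe sets, with Benjamini-Hochberg adjustment over all of them. Intervals are 95% and unadjusted. The script was tested on simulated data. Named were all members, up to 3 genes of each other list by smallest p (brightest probe set), the 5 genes most correlated with Cxcr6 and its 3 nearest coding genes on each side. Csf1r, S100a8, S100a9, Cst3, Gzma, S1pr1, Jchain and the other plasma cell markers were picked after their values were seen. So were Zbtb16 and the others of its list, and the dimmer probe sets of list genes. The members and lists were chosen with earlier results of these data known. Same-numbered samples had residual correlations of 0.04, 0.10 and -0.25, and differently numbered ones had -0.35 to 0.28. With 3 samples per group such values cannot decide whether the numbers pair the samples, and the main fit did not pair them.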

Additional observations from a re-analysis of the deposited data

How the results depend on the processing

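No member probe set passed under any of the 12 alternative fits or at an adjusted p of 0.10, and 5 passed an unadjusted p of 0.05. For the 94 probe sets of ligands, other receptors, signalling and migration genes the counts were likewise 0 and 9. Over all probe sets 8.78% passed the unadjusted p of 0.05. Of the 5 members, 2 were the Cxcr6 probe sets, chosen for this contrast. The Cxcr6 mean difference kept its direction throughout, from -0.94 to -0.67 without single arrays, -0.67 with array weights and -0.79 with the replicate block, under which no member passed. Whether the replicate numbers pair the samples is not known here. The median difference of the 14 probe sets changed sign with the brightest probe set per gene (0.011), with a gene's probe sets averaged (0.034) and without HDAC9-/- replicate 2 (0.036), and ran from -0.11 to 0.036 without single arrays. The mean of the 14 probe sets on an array had a pooled SD within genotypes of 0.11. The median difference, an unlike measure, exceeded that in size with array weights (-0.13) and without wild type replicate 3. The number of members lower without overlap was 2 to 6 without single arrays, and the number higher was 3 to 4, while over all probe sets the shares rose to 9.44% to 13.2% lower and 14.5% to 17.4% higher. With dim probe sets left out the number higher was 1, since the fewer probe sets tested hold neither Ccr4 nor the dimmest Ccr2 probe set. Comparing Cxcr6 with the other 8 receptors on the same array was added after the data were seen. The brightest Ccr2 probe set ranged from -0.11 to 0.13 over the alternatives and Cxcr4 from -0.07 to 0.15.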
